A study of Mus musculus with 29 samples.

Results

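Complexes II, III and IV of the respiratory chain were examined in differentiating 3T3-L1 cells through the messenger RNAs of their nuclear genes. The members were the genes of the count table whose symbol begins with Sdh followed by a, b, c, d or af, begins with Uqc, is Cyc1, or begins with Cox and a digit, without pseudogenes. This rule found 40 of the 11959 genes measured. There were 23 structural subunits, of which 4 belong to complex II, 9 to complex III and 10 to complex IV, and 17 assembly factors, of which 4 serve complex II, 3 serve complex III and 10 serve complex IV. The members lie on 17 chromosomes. Other isoforms of complex IV subunits (Cox4i2, Cox6a2, Cox6b2, Cox7a1, Cox8b and Cox8c) were not analysed here.

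3T3-L1 cells are mouse embryo fibroblasts which, once confluent and given hormones, turn into white fat cells in the dish. All cells were of this one line, with no genetic change, and received KDM5-C70 (C70), an inhibitor of the KDM5 histone demethylases, at 10 µM, or DMSO vehicle alone, from day -2 to day 0, before differentiation medium was given at day 0. RNA was collected at days 0, 1, 2 and 7, so that the later samples were taken after treatment had ended. The 29 samples formed 8 groups. Each of days 0, 1 and 2 had 3 vehicle samples and 4 C70 samples, and day 7 had 4 per arm. The sources used here do not say whether replicates were separate cultures, so P values measure the spread between these samples, which may be technical.

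Complex II (succinate dehydrogenase) oxidizes succinate in the citric acid cycle and passes the electrons to ubiquinone. Complex III (ubiquinol-cytochrome c reductase) passes them on to cytochrome c and pumps protons, and complex IV (cytochrome c oxidase) uses them to reduce oxygen and also pumps protons. All subunits of complex II are encoded in the nucleus, whereas complex III takes cytochrome b, and complex IV its catalytic core, from mitochondrial DNA. Assembly factors insert heme, copper, flavin and iron-sulfur clusters and guide the subunits together, and most do not stay in the finished enzyme. White adipocytes gain mitochondria as they differentiate. Because respiration was one of the questions of the study, the comparison of interest here was whether transient C70 before differentiation was followed by other levels of these messages, on which days and in which complex.

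Total counts ranged from 16320275 to 24037170 per sample. Levels are given as CPM, the count of a gene per 1000000 counts of its library after scaling with TMM factors. A member was called when edgeR's quasi-likelihood test, fitted to all genes, gave a Benjamini-Hochberg adjusted P value under 0.05 together with a log2 fold change of more than 0.32 in size. Both thresholds are those of the authors, and the second is called the fold change threshold. The day 7 vehicle replicate 1 stood apart from the other day 7 vehicle samples. Its mean log2 level over the 23 subunits, relative to day 0 vehicle, was 2.17, against 1.73 to 1.80 in the other three vehicle samples and 1.49 to 1.67 in the 4 C70 samples. The C70 effects at day 7 are therefore given with it and without it, and the vehicle levels of day 7 include it except where stated. The fit shared its estimate of the spread over all groups, so this sample also enters the SE and P values of the other days. The libraries were strand-specific, but the counting setting is not given in the sources used here. Of the members, 15 overlap a gene on the opposite strand and 4 a gene on the same strand, and these overlaps are named where they concern a gene described below.

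Promoter sequences of 4 members are printed because these genes were called on different days after C70. Uqcr11 was called lower at days 1, 2 and 7, Cox6a1 at day 2 only and Uqcrh at day 7 only, the day 7 calls depending on one vehicle sample, and Cox20 was called higher at days 0, 1 and 2. For Uqcr11, Cox6a1 and Uqcrh the change of the C70 effect from day 2 to day 7 was not called, with or without that sample. Each stretch runs from 170 bases before the annotated start to 10 bases after it, in the direction of transcription, from RefSeq on GRCm38.p6. Capitals mark matches to the motifs described next. Uqcr11 is at chr10:80406812-80406991 on the minus strand, Cox6a1 at chr5:115348949-115349128 on the minus strand, Uqcrh at chr4:116075061-116075240 on the minus strand and Cox20 at chr1:178318983-178319162 on the plus strand.
Uqcr11: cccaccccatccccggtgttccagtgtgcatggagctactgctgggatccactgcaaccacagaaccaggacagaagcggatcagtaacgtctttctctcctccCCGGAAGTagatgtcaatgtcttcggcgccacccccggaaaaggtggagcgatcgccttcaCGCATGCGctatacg
Cox6a1: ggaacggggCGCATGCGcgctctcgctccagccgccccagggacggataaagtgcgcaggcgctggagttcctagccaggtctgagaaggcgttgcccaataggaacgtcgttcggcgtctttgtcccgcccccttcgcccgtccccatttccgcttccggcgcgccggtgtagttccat
Uqcrh: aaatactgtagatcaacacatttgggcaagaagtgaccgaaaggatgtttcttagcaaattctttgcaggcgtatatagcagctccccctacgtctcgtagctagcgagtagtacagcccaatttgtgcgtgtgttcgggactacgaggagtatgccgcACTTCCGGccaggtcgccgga
Cox20: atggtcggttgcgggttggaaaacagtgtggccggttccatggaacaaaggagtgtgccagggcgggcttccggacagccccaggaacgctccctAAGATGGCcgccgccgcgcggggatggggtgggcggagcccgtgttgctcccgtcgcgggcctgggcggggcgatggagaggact

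Promoters of 31 of the 40 members were matched by symbol, over a window of 300 bases (250 before the start and 50 after it). Those of Cox17, Cox18, Cox4i1, Cox6c, Cyc1, Sdhc, Uqcrb, Uqcrc2 and Uqcrq were not matched. Letters were searched exactly and on both strands. CGCATGCG, a core of the NRF1 motif that reads the same on both strands, was found in 3 of 31 member promoters (9.68%), those of Uqcr11, Uqcrc1 and Cox6a1, against 4.23% of the promoters of all genes tested and 1.88% of all promoters. CCGGAAGT, a core of the GABPA motif, was found in 6 of 31 (19.4%), those of Uqcr11, Uqcrh, Cox8a, Cox10, Cox14 and Cox15, against 9.13% and 3.93%. AAGATGGC, a core of the YY1 motif, was found in 3 of 31 (9.68%), those of Uqcc2, Cox10 and Cox20, against 5.14% and 2.86%. AAGGTCA, the single site of estrogen-related receptors, was found in 2 of 31 (6.45%), those of Sdhd and Uqcc3, against 2.8% and 4.66%. The longer form TCAAGGTCA, which contains it, was found in 1 of 31 (3.23%), that of Sdhd, against 0.255% and 0.407%. Uqcr11 and Cox10 were the members that held 2 different motifs. A match describes the sequence and does not show that a factor binds there.

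Per length of annotated exon, subunits stood well above assembly factors. Levels between genes are compared here as RPKM (CPM divided by the union exon length in kilobases), computed from the counts. In day 0 vehicle cells the 23 subunits ranged from 19.6 RPKM for Cox6c to 246 RPKM for Cox8a, with a median of 38.4 RPKM, and the 17 assembly factors from 0.586 RPKM for Cox16 to 73.8 RPKM for Uqcc2, with a median of 6.56 RPKM. At day 7 the medians were 169 RPKM for subunits and 14.5 RPKM for assembly factors. The 4 subunits of complex II, which are present in equal numbers in the enzyme, were within 2.51 times of each other at day 7, from 74.2 RPKM for Sdhc to 186 RPKM for Sdha. The 9 subunits of complex III were within 2.84 times, from 102 RPKM for Uqcrc1 to 291 RPKM for Uqcr10. Complex IV was much less even: its 10 subunits spanned 16.4 times, from 55.01 RPKM for Cox5a to 899.9 RPKM for Cox8a, with Cox6a1 next at 736 RPKM. Among the assembly factors, Cox14 (COX1 translation and assembly, 151 RPKM), Uqcc2 (cytochrome b assembly, 89.5 RPKM) and Cox7a2l (which joins complexes III and IV in supercomplexes, 54.6 RPKM) were the highest. Cox17, the copper chaperone that feeds complex IV, was the lowest at 1.52 RPKM. Its union exon length of 5773 bases covers its whole annotated span, so its rank depends on that length. The same holds for the other ranks and spans, because a union of exons can be longer than the message. In complex IV it was 619 bases for Cox8a, 702 for Cox6a1, 2101 for Cox5a and 3567 for Cox6c. How much of the spread of complex IV comes from these lengths was not tested.

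**Figure D1:**
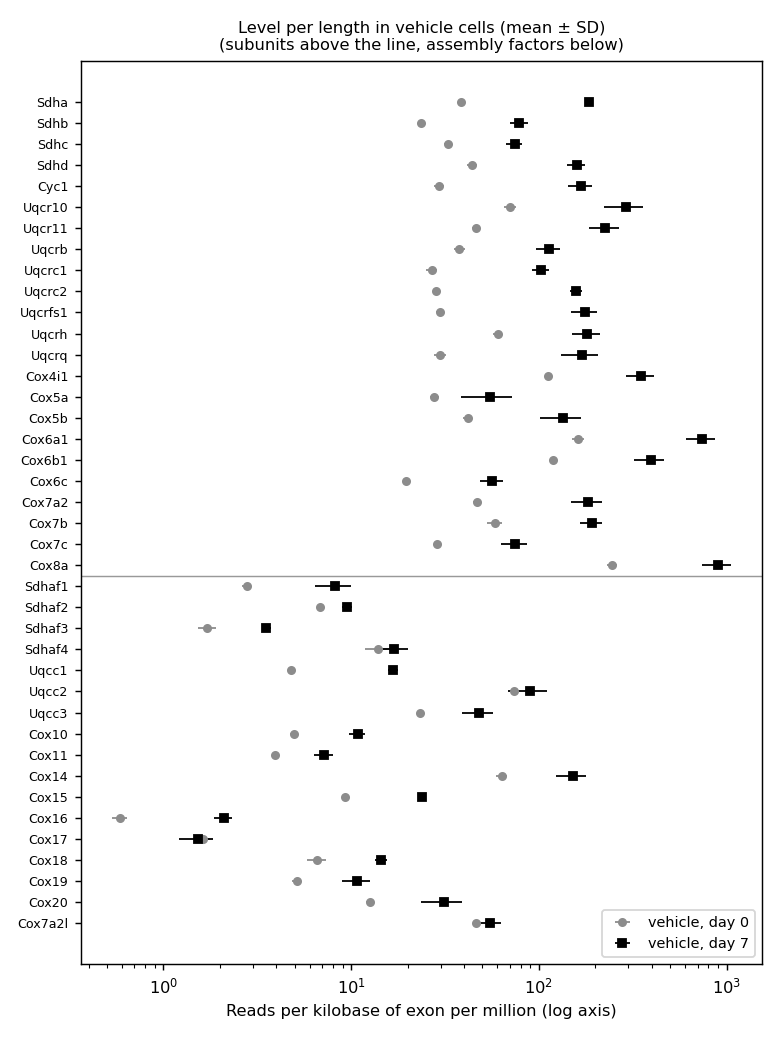
Level of each member per length of annotated exon in vehicle cells at day 0 (circles) and day 7 (squares), as mean ± SD in RPKM on a log axis (n = 3 and 4). Subunits, above the line, had a median of 38.4 RPKM at day 0 and 169 RPKM at day 7, and assembly factors, below it, 6.56 and 14.5 RPKM.

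In vehicle cells nearly all members rose with differentiation. At day 1, 27 of 40 members were called higher than at day 0 (26.2% of all genes tested were), at day 2, 36 (33.4% of all genes), and at day 7, 36 (36.7% of all genes). No member was called lower at any of these days (27.9%, 32.4% and 36.7% of all genes). The median log2 change from day 0 was 0.48 at day 1, 1.26 at day 2 and 1.58 at day 7, while the medians over all genes were 0.01, 0.02 and 0.01. All 23 subunits were called higher at day 2 and at day 7, with median log2 changes of 1.32 and 1.85. By day 7 the median log2 change was 2.30 for the subunits of complex III, 1.79 for those of complex II and 1.70 for those of complex IV, and it was 1.07 for the assembly factors. Without the day 7 vehicle replicate 1 the day 7 count was also 36, with a median of 1.74 over subunits and 1.04 over assembly factors.

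The rise was uneven within each complex. In complex II, Sdha, the flavoprotein that holds the succinate site (ENSMUSG00000021577, chr13:74322254-74350280), rose from 159.5, 158 and 158 CPM at day 0 to 384, 388 and 405 CPM at day 2 and 789, 770.3, 761 and 748 CPM at day 7. Sdhc, a membrane anchor, rose from 110.0, 101 and 107 CPM to 215, 209 and 218 and then 276, 229, 226 and 234 CPM. The days did not overlap for either gene, but the log2 change from day 0 to day 7 was 2.27 (SE 0.0403, edgeR adjusted P = 1.74e-29) for Sdha and 1.18 (SE 0.0584, edgeR adjusted P = 4.09e-18) for Sdhc. Sdha therefore gained on the other subunits after day 2, with a further log2 change of 0.97 from day 2 to day 7 against 0.17 for Sdhc. In complex III the largest rise was that of Uqcrfs1, the Rieske iron-sulfur protein, from 38.8, 43.02 and 40.1 CPM to 297, 222, 216 and 227 CPM, a log2 change of 2.57 (SE 0.0908, edgeR adjusted P = 6.87e-22). The smallest was that of Uqcrh, the hinge protein between cytochromes c1 and c, from 78.7, 74.1 and 70.98 to 280.3, 207, 198 and 209.5 CPM, or 1.58 (SE 0.0776, edgeR adjusted P = 3.56e-18). In complex IV the extremes were Cox6a1 and Cox5a, both structural subunits around the catalytic core. Cox6a1 rose from 116, 121 and 104 CPM to 648, 456, 459 and 502 CPM, or 2.19 (SE 0.0860, edgeR adjusted P = 1.13e-20). Cox5a, whose span holds a gene on the opposite strand (Gm26631), rose from 61.1, 59.1 and 54.8 CPM to 164, 85.6, 95.9 and 117 CPM, or 0.98 (SE 0.146, edgeR adjusted P = 3.40e-07), and 0.77 without the day 7 vehicle replicate 1.

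From day 2 to day 7 the members took different courses. In that interval 22 members were called higher (26.6% of all genes were) and none lower (26.7%). Without the day 7 vehicle replicate 1, 16 were called higher (26.4% of all genes) and 2, Cox10 and Cox14, lower (25.4%). With all samples 17 of the 23 subunits were called higher and their median log2 change was 0.43, and without the replicate 12 were and it was 0.35. Cox10 and Cox14, which serve heme A synthesis and COX1 assembly, instead had log2 changes of -0.28 and -0.28 (edgeR adjusted P = 0.000247 and 0.00224), under the fold change threshold, and -0.33 (SE 0.0572, edgeR adjusted P = 5.05e-06) and -0.40 (SE 0.0522, edgeR adjusted P = 3.17e-08) without the replicate, past it. Cox20, a chaperone of COX2, did the reverse: it had a log2 change of 0.24 by day 2 that was not called, and then rose by 1.07 (SE 0.111, edgeR adjusted P = 6.15e-10), or 0.91 without the replicate. The 4 members not called by day 7 were Cox17, Cox7a2l, Uqcc2 and Sdhaf4, a chaperone of the Sdha protein, with log2 changes from day 0 of -0.09, 0.23, 0.28 and 0.27, and -0.01, 0.12, 0.10 and 0.15 without the replicate.

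**Figure D2:**
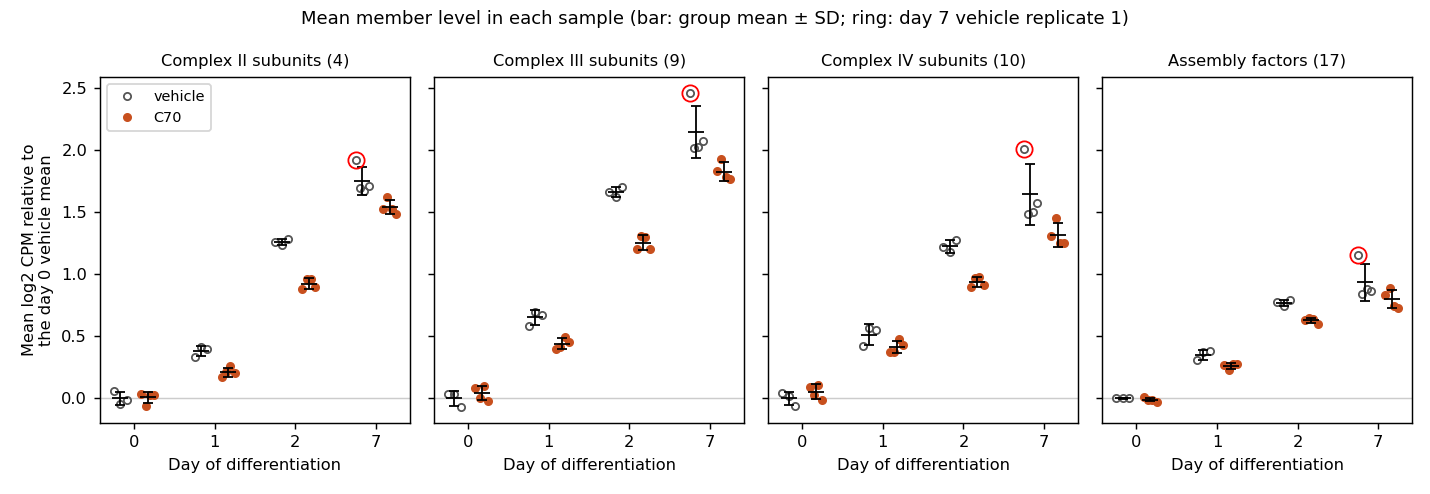
Mean log2 CPM of the subunits of each complex and of the assembly factors in every sample, relative to the day 0 vehicle mean, against day of differentiation (open, vehicle; filled, C70; bar, group mean ± SD). Vehicle and C70 samples did not overlap at day 2 in any panel, and the ringed day 7 vehicle replicate 1 lies above every other sample.

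Few of these genes differed at the end of treatment. At day 0, no member was called lower (3.09% of all genes were) and 1 of 40, Cox20, was called higher (5.89% of all genes were). On the adjusted P value alone 1 member was lower (8.91% of all genes), and at an unadjusted P under 0.05, 3 members differed (30.8% of all genes). No subunit was called, and the median log2 fold change of the 23 subunits was 0.05. DESeq2 called no member lower at day 0 either. Quantile normalization with limma, removal of the lowest 25% of genes, a fit of the compared groups alone and the replicate block each called 1. At day 1, 4 members were called lower (7.8% of all genes were) and 1 higher (13.6%). On the adjusted P value alone 14 were lower (19.7% of all genes). The 4 called were Cyc1 (-0.35 on the log2 scale), which carries heme c1 in complex III, Uqcr11 (-0.35), a small subunit of complex III, Cox10 (-0.47) and Cox19 (-0.35), which handles copper for complex IV. Leaving out the day 1 vehicle replicate 1 raised this count to 7. The median over all members was -0.16, and 34 of 40 were below 0 (51.2% of all genes).

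With both thresholds and all samples, the members called lower with C70 were most numerous at day 2. On the adjusted P value alone they numbered 27 at day 2 (25.4% of all genes) and 28 at day 7 (18.8%). With both thresholds, 19 of 40 members were called lower with C70 at day 2 (13.6% of all genes were) and 2 were called higher (16.9%). The median log2 fold change of the members was -0.32, and that of all genes was 0.00. All 23 subunits had a log2 fold change below 0 (50.6% of all genes) and 12 of them were called. These were 2 of 4 in complex II (Sdha and Sdhc), 7 of 9 in complex III (all but Uqcrb and Uqcrh) and 3 of 10 in complex IV (Cox6a1, Cox7a2 and Cox7c). The median log2 fold changes were -0.34 in complex II, -0.45 in complex III and -0.30 in complex IV, and the difference between complexes was not tested. At a fold change over 1.5 only Uqcrq remained called (4.67% of all genes).

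The cells also differed in markers of differentiation at day 2. Of 9 markers of mature adipocytes in the table, 8 were called lower with C70 at day 1 (7.8% of all genes). Again 8 were at day 2 (13.6%), and Plin1 was the exception on both days. The summed level of the 9 at day 2 was 12750.4 to 14210.5 CPM with C70 and 22591 to 23493 CPM with vehicle. Of 5 preadipocyte markers, 2 were called higher at day 0 (5.89% of all genes), 4 at day 1 (13.6%) and 4 at day 2 (16.9%). Their summed level at day 2 was 1063 to 1147 CPM with C70 against 699 to 727 CPM with vehicle. The paper proposes that Dlk1, one of the 5, is a direct target of KDM5, and what this adds to the sum was not tested. No marker of either list was at 0 at day 2 or day 7. The label adipocyte is given to all samples, but at day 0 the adipocyte markers summed to only 1288 to 1410.1 CPM in vehicle cells, most of it Lpl, against 25936 to 31465 CPM at day 7, and Adipoq, Plin1, Cidec, Retn and Cfd were at 0.186 to 0.403, 0.186 to 0.443, 0.886 to 1.07, 0 to 0.282 and 0.279 to 0.312 CPM there. In bulk RNA, fewer cells of a type and less RNA per cell cannot be told apart, and the part of these shifts in the day 2 result was not tested. Of the macrophage markers only Cd68 was measured, and it was higher with C70 at days 0, 1 and 2 (log2 fold change 3.85, 2.90 and 2.06) at levels of at most 18.7 to 19.8 CPM. Markers of brown adipocytes and of muscle were not analysed here.

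**Figure D3:**
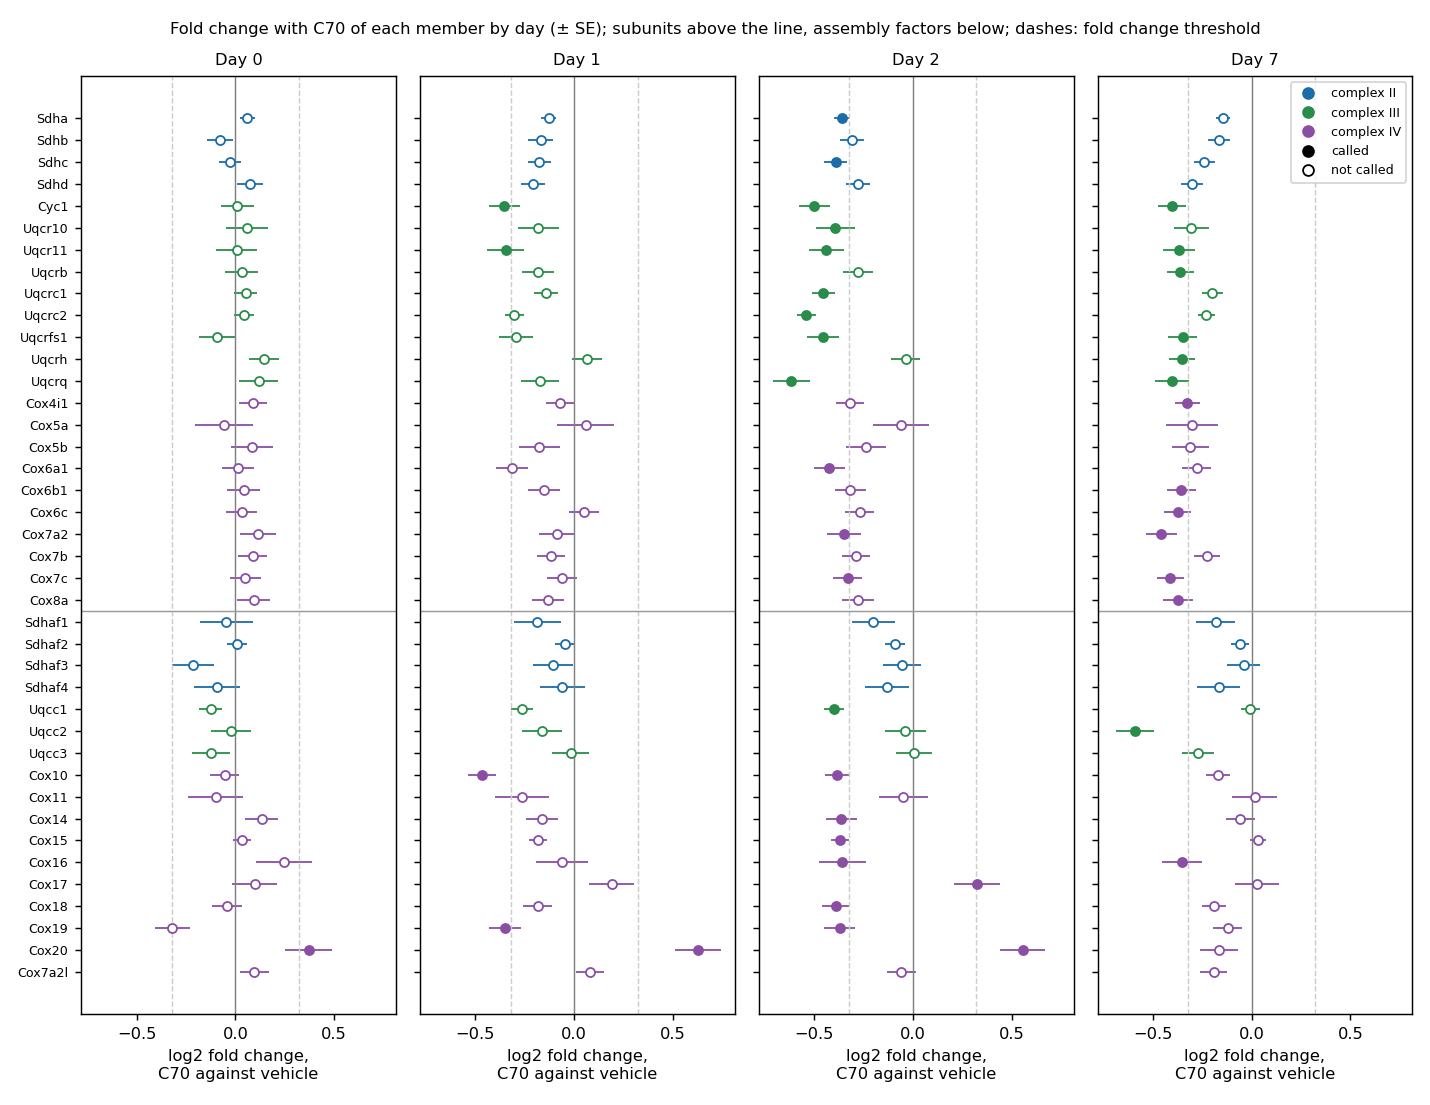
Log2 fold change of each member, C70 against vehicle, with its SE, at days 0, 1, 2 and 7 (filled, called; dashes, the fold change threshold). At day 2 all 23 subunits, above the line, lie below 0 and 12 are called, while among the assembly factors 7 are called lower and Cox17 and Cox20 are called higher.

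All 4 complex II subunits were measured at every day. At day 2 Sdha was at 384, 388 and 405 CPM in the vehicle samples and 299, 314, 307 and 301 CPM in the C70 samples. Every C70 sample was below every vehicle sample, and the log2 fold change was -0.36 (SE 0.0371, edgeR adjusted P = 1.47e-09). Sdhc was at 215, 209 and 218 CPM and 162, 160.3, 166 and 164 CPM, also without overlap, a change of -0.39 (SE 0.0561, edgeR adjusted P = 7.30e-07). Sdhb, which carries the iron-sulfur clusters, was at 116, 111 and 117 CPM and 87.9, 98.3, 95.7 and 87.9 CPM, and Sdhd, the second anchor, at 169, 166 and 167 CPM and 132, 141, 145 and 135 CPM. These groups did not overlap either, but the changes of -0.31 (SE 0.0608, edgeR adjusted P = 7.89e-05) and -0.28 (SE 0.0606, edgeR adjusted P = 0.000277) were under the fold change threshold. Sdhb became called when the day 2 vehicle replicate 2, C70 replicate 2 or C70 replicate 3 was left out, with values of -0.33, -0.34 and -0.33. At day 0 the log2 fold changes of the 4 genes were between -0.08 and 0.07 and none passed the test. In the day 0 samples Sdha was at 159.5, 158 and 158 CPM with vehicle and 170.3, 161, 161 and 169 CPM with C70, Sdhb at 55.6, 51.2 and 52.04 and 52.4, 48.5, 48.2 and 51.7 CPM, Sdhc at 110.0, 101 and 107 and 101, 97.1, 114 and 104 CPM, and Sdhd at 58.2, 52.4 and 52.4 and 58.8, 53.5, 58.97 and 57.5 CPM. At day 1 all 4 were slightly lower, with log2 fold changes of -0.13 for Sdha, -0.17 for Sdhb, -0.18 for Sdhc and -0.21 for Sdhd, each with an adjusted P value under 0.05 and none called. A gene of uncertain function, Gm16125, lies on the opposite strand of Sdha.

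Complex III held the largest falls at day 2. Uqcrq (ENSMUSG00000044894, chr11:53427922-53430831), a small subunit, was at 177, 170.0 and 176 CPM with vehicle and 109, 119.6, 117 and 109 CPM with C70, a log2 fold change of -0.62 (SE 0.0925, edgeR adjusted P = 1.60e-06). Uqcrc2, one of the paired core proteins, was at 264, 261 and 265 CPM and 182, 189, 179 and 174 CPM, a change of -0.54 (SE 0.0472, edgeR adjusted P = 5.36e-11). In both genes the lowest vehicle sample was far above the highest C70 sample. Uqcrc2 has Pdzd9 on the opposite strand. Cyc1 (-0.50), Uqcrfs1 (-0.46), Uqcrc1 (-0.45), the second core protein, Uqcr11 (-0.44) and Uqcr10 (-0.39) were also called. Thus the 2 core proteins and 2 of the proteins that carry electrons through the complex were among the genes that fell. Uqcrh was the exception, at 183, 186 and 189 CPM with vehicle and 174, 192, 181 and 178 CPM with C70. Its groups overlapped, and its log2 fold change was -0.04 (SE 0.0731, edgeR adjusted P = 0.699). Uqcrh has Gm12854 on the opposite strand and 2 named pseudogenes, between which reads could have been divided.

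The day 2 changes of complex IV had a narrower range than those of complex III, and this difference was not tested. Cox6a1 was at 345, 332 and 362 CPM with vehicle and 251, 277, 255 and 249 CPM with C70, without overlap, a log2 fold change of -0.42 (SE 0.0792, edgeR adjusted P = 4.22e-05). Cox7a2, a small membrane subunit of the ubiquitous form of the enzyme, was at 108, 108 and 114 CPM and 80.96, 86.6, 91.5 and 86.9 CPM, a change of -0.35 (SE 0.0858, edgeR adjusted P = 0.00110). The call on Cox7a2 was lost without the day 2 vehicle replicate 3 or the day 2 C70 replicate 1, with values of -0.32 in both cases. Cox4i1, Cox6b1, Cox6c, Cox7b and Cox8a had log2 fold changes from -0.32 to -0.27 with adjusted P values under 0.05, and so were lower by less than the fold change threshold. Cox5a was at 94.5, 102 and 124 CPM and 107, 104, 101 and 97.9 CPM. Its vehicle samples spanned the C70 samples, its log2 fold change was -0.06 (SE 0.140, edgeR adjusted P = 0.748), and the sign turned, to 0.06, without the day 2 vehicle replicate 3.

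Of the 17 assembly factors, 7 were called lower at day 2 (Uqcc1, Cox10, Cox14, Cox15, Cox16, Cox18 and Cox19), against 13.6% of all genes. The share called higher, 2 of 17 (Cox17 and Cox20), was not above the 16.9% of all genes, and the median of the 17 was -0.13. None of the 4 factors of complex II was called on any day, and their log2 fold changes at day 2 lay between -0.20 and -0.06. The largest fall was that of Uqcc1, which acts with Uqcc2 in the synthesis and assembly of cytochrome b. Uqcc1 was at 84.8, 84.2 and 90.8 CPM with vehicle and 62.6, 67.4, 66.4 and 65.8 CPM with C70, without overlap, a log2 fold change of -0.40 (SE 0.0525, edgeR adjusted P = 1.62e-07), whereas Uqcc2 was at 55.1, 52.7 and 57.2 CPM and 52.5, 52.2, 56.6 and 52.9 CPM, with overlap, and -0.04 (SE 0.102, edgeR adjusted P = 0.785). Both heme A enzymes fell, Cox10 by 0.38 and Cox15 by 0.37 on the log2 scale. Cox15 was at 114, 120.0 and 125 CPM and 91.3, 96.7, 91.5 and 91.1 CPM and its groups did not overlap. Cox10 and Cox15 each have 2 genes on the opposite strand. Cox18, which inserts COX2 into the membrane, fell by 0.39, and Cox16, which shares its strand and span with 4 other genes, had -0.36 at only 3.53 to 4.30 CPM with C70.

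Cox20 was the only member called higher with C70 at day 0 or day 1, and with Cox17 one of the pair called higher at day 2. Cox20 (ENSMUSG00000026500, chr1:178319130-178322693, with Hnrnpu on the opposite strand) was at 11.2, 10.6 and 11.6 CPM with vehicle and 14.9, 14.04, 13.2 and 15.4 CPM with C70 at day 0, at 12.8, 12.4 and 11.6 and 20.1, 17.4, 18.8 and 19.5 CPM at day 1, and at 13.8, 13.3 and 12.5 and 19.5, 19.7, 18.98 and 19.3 CPM at day 2. Every C70 sample was above every vehicle sample on each of these days. The log2 fold changes were 0.37 (SE 0.118, edgeR adjusted P = 0.0244) at day 0, 0.63 (SE 0.115, edgeR adjusted P = 5.54e-05) at day 1 and 0.56 (SE 0.114, edgeR adjusted P = 0.000138) at day 2. The day 0 call was lost without the day 0 vehicle replicate 1 or 2 or the day 0 C70 replicate 1 or 4, with values of 0.38, 0.34, 0.36 and 0.33. At day 7 Cox20 was at 37.4, 22.99, 27.5 and 22.9 CPM with vehicle and 23.3, 27.6, 23.3 and 24.3 CPM with C70, and the groups overlapped, with -0.17 (SE 0.0968, edgeR adjusted P = 0.172), or 0.01 (SE 0.0697, edgeR adjusted P = 0.923) without the vehicle replicate 1, which had the highest level. The C70 effect on Cox20 fell from day 2 to day 7 by 0.72 on the log2 scale (edgeR interaction, adjusted P = 0.000381). Cox17 was at 8.55, 8.06 and 8.90 CPM and 11.5, 10.5, 10.2 and 10.2 CPM at day 2, without overlap, a log2 fold change of 0.32 (SE 0.116, edgeR adjusted P = 0.0208). This value is at the threshold. Its call was lost with median-of-ratios size factors (0.31), DESeq2 (0.31), quantile normalization with limma (0.25) and a prior count of 2 (0.32), and without the day 2 vehicle replicate 2 (0.28) or C70 replicate 1 (0.28). Cox17 shares its strand and span with Gm21987.

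**Figure D4:**
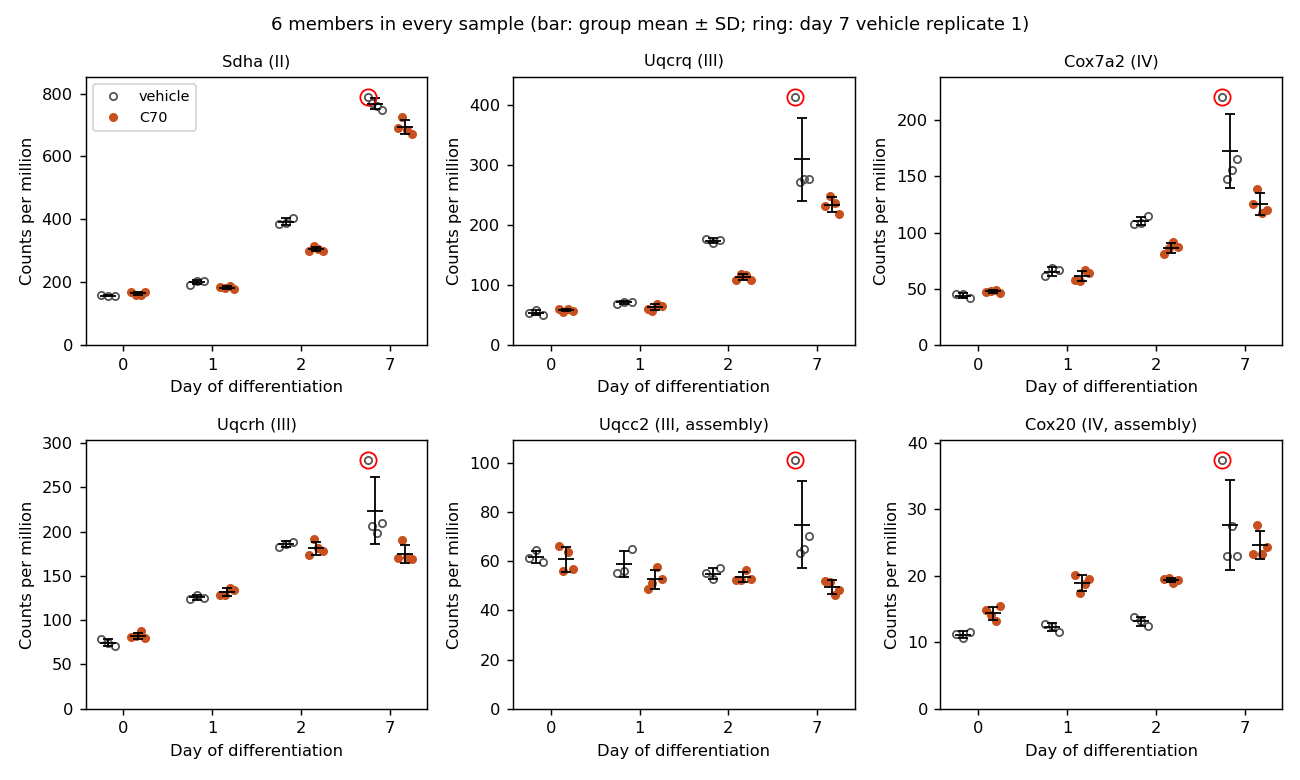
Level of 6 members in every sample, in CPM, against day of differentiation (open, vehicle; filled, C70; bar, mean ± SD; ring, day 7 vehicle replicate 1). Uqcrq is lower with C70 at day 2 in every sample, Uqcrh is not, Uqcc2 separates only at day 7, and Cox20 is higher with C70 at days 0, 1 and 2.

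The day 2 differences were tested directly against day 0. By the interaction contrast, the C70 effect was lower at day 2 than at day 0 in 22 of 40 members (11.7% of all genes were called lower in this contrast) and higher in none (14.9%). The 22 held 17 of 23 subunits, 3 of complex II, 7 of complex III and 7 of complex IV, and 5 assembly factors. Uqcrq had the largest change in the effect, -0.73 (SE 0.136, edgeR adjusted P = 6.82e-05). Put as the rise from day 0 to day 2 in each arm, the median log2 rise of the subunits was 1.32 in vehicle cells and 0.94 in C70 cells, and for all 23 the C70 value was above 0 and smaller than the vehicle value. In complex III the medians were 1.68 and 1.13, in complex II 1.21 and 0.88, and in complex IV 1.24 and 0.86. Uqcrq rose by 1.68 in vehicle cells and 0.95 in C70 cells. For the assembly factors the medians were 0.71 and 0.63. 

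At day 7 the count of members called lower was 14 of 40 (4.85% of all genes were) and none was called higher (14.3%). This count rested on one library: without the day 7 vehicle replicate 1 it was 1 (3.75% of all genes), the gene being Uqcc2. On the adjusted P value alone 28 members were lower with all samples (18.8% of all genes). The direction rested less on that library. With all samples, all 23 subunits had a log2 fold change below 0 (49.4% of all genes), 12 were called, 22 passed the test on the adjusted P value, and the median was -0.33. Without the library all 23 were still below 0 (48.1% of all genes), none was called, 18 passed on the adjusted P value (18.1% of all genes, lower) and the median was -0.22. The 12 called with all samples were 6 in complex III, 6 in complex IV and none in complex II. The adipocyte markers did not repeat their day 2 calls: at day 7 none of 9 was called lower and 1 was called higher with all samples (2 without the vehicle replicate 1), while all 5 preadipocyte markers were called higher in both cases. Of all genes, 14.3% were called higher with all samples and 14.2% without the replicate.

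**Figure D5:**
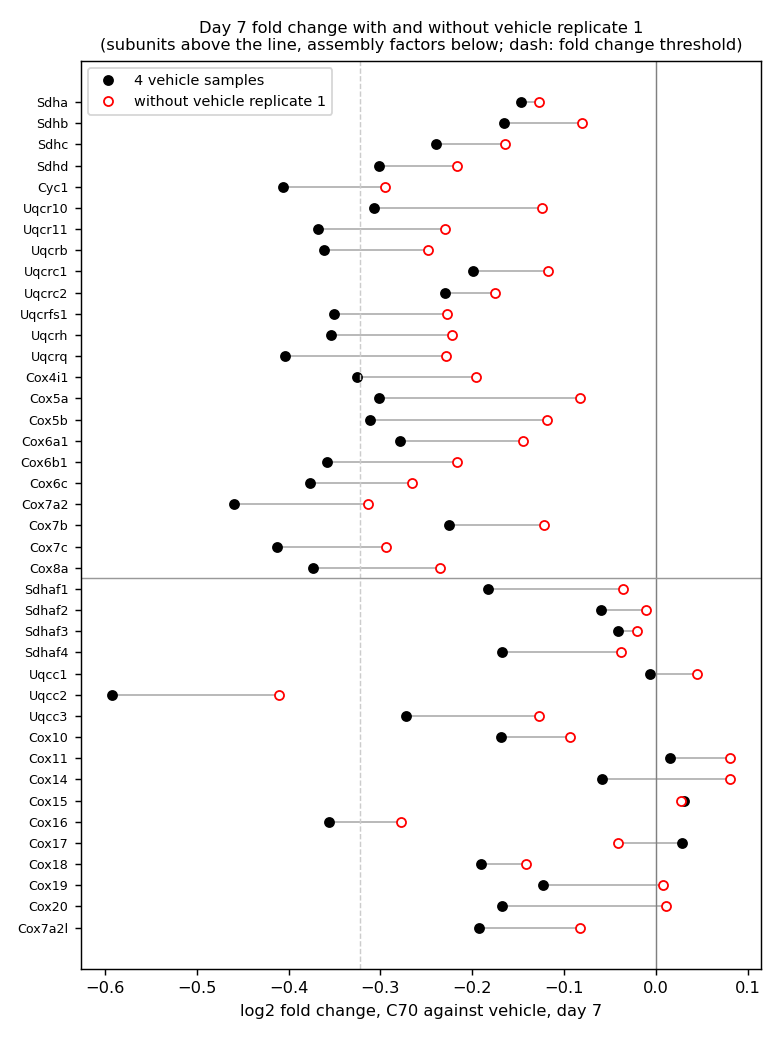
Log2 fold change of each member at day 7, C70 against vehicle, with all 4 vehicle samples (filled) and without the vehicle replicate 1 (open); the dash marks the fold change threshold. Every subunit moves towards 0 and stays below it, and Uqcc2 alone stays beyond the dash.

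In complex II the day 7 changes were small. Sdha was at 789, 770.3, 761 and 748 CPM with vehicle and 689, 725, 685 and 673 CPM with C70. The groups did not overlap even without the vehicle replicate 1, and the log2 fold change was -0.15 (SE 0.0342, edgeR adjusted P = 0.000920), or -0.13 without it. Sdhb was at 204, 164, 166 and 169 and 151, 169.9, 156 and 149.9 CPM, with overlap, and -0.17, or -0.08 without the replicate. Sdhc was at 276, 229, 226 and 234 and 207, 209.9, 199.6 and 199.8 CPM and Sdhd at 228, 189, 177 and 191 and 155, 172, 159.6 and 150.1 CPM. Both were lower in every C70 sample, with -0.24 and -0.30, and -0.16 and -0.22 without the replicate. Sdhd passed the fold change threshold when the day 7 vehicle replicate 3 or C70 replicate 2 was left out (-0.35 and -0.34).

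In complex III, Cyc1 and Uqcrq had the largest falls at day 7 with all samples. Cyc1 was at 438, 323, 324 and 361 CPM with vehicle and 273, 297, 261 and 259.8 CPM with C70, a log2 fold change of -0.41 (SE 0.0717, edgeR adjusted P = 3.42e-05), or -0.29 (SE 0.0554, edgeR adjusted P = 4.93e-05) without the vehicle replicate 1. Uqcrq was at 413, 272, 277 and 277 CPM and 232, 249, 237 and 219 CPM, or -0.40 and -0.23 without the replicate, where the changes of Uqcrb (-0.25) and Uqcr11 (-0.23) were as large or larger. All C70 samples of both genes were below all vehicle samples. Uqcrh, whose groups overlapped at day 2, was at 280.3, 207, 198 and 209.5 CPM and 169.6, 190.5, 171 and 169 CPM at day 7, without overlap, a change of -0.35 (SE 0.0679, edgeR adjusted P = 9.78e-05), or -0.22 (SE 0.0427, edgeR adjusted P = 6.83e-05) without the replicate. The difference between its day 2 and day 7 effects was -0.32 (SE 0.0998, edgeR adjusted P = 0.0158), just under the fold change threshold, or -0.20 (SE 0.0605, edgeR adjusted P = 0.0108) without the replicate. The smallest change was that of Uqcrc1, at 489, 387, 403 and 415 CPM and 381, 380.4, 357 and 358 CPM, or -0.20 and -0.12 without the replicate.

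In complex IV the called genes at day 7 were Cox4i1, Cox6b1, Cox6c, Cox7a2, Cox7c and Cox8a, of which only Cox7a2 and Cox7c had been called at day 2. Cox7a2 was at 220.1, 148, 156 and 165 CPM with vehicle and 125, 139, 117 and 119.6 CPM with C70, without overlap, a log2 fold change of -0.46 (SE 0.0784, edgeR adjusted P = 2.08e-05). Without the vehicle replicate 1 it was -0.31 (SE 0.0518, edgeR adjusted P = 7.11e-06), just under the fold change threshold. Cox7c was at 104, 78.6, 79.1 and 75.6 CPM and 63.3, 67.6, 62.7 and 59.4 CPM, or -0.41 and -0.29. A short gene, Gm22574, lies on the same strand within Cox7c. With all samples Cox7b was the least changed, at 277, 223, 211 and 215 CPM and 196, 223, 184 and 189 CPM, with -0.23, or -0.12 without the replicate. Its groups overlapped. Without the replicate Cox5a (-0.08) and Cox5b (-0.12) had smaller values.

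Among the assembly factors, Uqcc2 and Cox16 were called lower at day 7. Uqcc2 (ENSMUSG00000024208, chr17:27122663-27133916) was at 101, 63.3, 64.8 and 70.4 CPM with vehicle and 52.1, 51.5, 46.4 and 48.4 CPM with C70, and its groups did not overlap with or without the vehicle replicate 1. Its log2 fold change was -0.59 (SE 0.0952, edgeR adjusted P = 8.68e-06), or -0.41 (SE 0.0626, edgeR adjusted P = 1.96e-06) without the replicate, the one day 7 call that did not rest on it. The change of its C70 effect from day 2 to day 7 was -0.55 (SE 0.140, edgeR adjusted P = 0.00289). Its partner Uqcc1 took the opposite course: it was at 111, 97.4, 98.3 and 98.01 CPM and 96.8, 105, 99.6 and 101 CPM, with overlap and -0.01 (SE 0.0480, edgeR adjusted P = 0.930), or 0.04 without the replicate, and the change of its effect from day 2 was 0.39 (SE 0.0712, edgeR adjusted P = 7.44e-05). Cox15 likewise had no difference that passed the test at day 7, at 115, 121, 121 and 112 CPM and 121, 123, 113 and 122 CPM, with 0.03 (SE 0.0406, edgeR adjusted P = 0.582), or 0.03 without the replicate, against its fall at day 2 (change of the effect 0.40 (SE 0.0597, edgeR adjusted P = 5.02e-06)). Together with Cox20 these were the 4 members for which the C70 effect at day 7 was called different from that at day 2 (2 lower, against 9.04% of all genes, and 2 higher, against 11.9%). On the adjusted P value alone there were 9 (30.3%). Without the day 7 vehicle replicate 1 there were also 9 calls, 2 lower (9.29% of all genes) and 7 higher (12.4%).

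The mitochondrially encoded partners of these subunits had log2 fold changes above 0 at day 7. Of the 4 such genes listed, mt-Cytb (cytochrome b of complex III) and mt-Co1 (the catalytic subunit of complex IV) are in the table. The log2 fold changes of both lay between -0.06 and 0.12 at days 0, 1 and 2, and none of these passed the test. At day 7 mt-Cytb was at 12715, 10440.0, 11158 and 11748 CPM with vehicle and 16259.8, 18613, 17109.6 and 15221 CPM with C70, every C70 sample above every vehicle sample, a log2 fold change of 0.55 (SE 0.0536, edgeR adjusted P = 1.33e-09). It was 0.60 without the vehicle replicate 1. mt-Co1 was at 16256, 17137, 17072 and 16897 CPM and 18676, 21518, 19444 and 18751 CPM, also without overlap, and 0.22 (SE 0.0467, edgeR adjusted P = 0.000357), under the fold change threshold, or 0.21 without the replicate. The nuclear subunits of the same complexes had log2 fold changes below 0 at that day.

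Other genes, most of which serve complexes III and IV, were listed by function. Fastk is in the list, and no role in these complexes is claimed for it here. Of 21 in the table (23 listed), none was called at day 0, 3 were called lower at day 1 (7.8% of all genes), 6 lower (13.6%) and 1 higher (16.9%) at day 2, and 4 lower at day 7 (4.85%), or 1 without the vehicle replicate 1 (3.75%). The one that remained was Cycs, the electron carrier cytochrome c between complexes III and IV. Cycs was at 297, 276 and 287 CPM with vehicle and 177, 189, 200.4 and 186 CPM with C70 at day 2, and at 295, 239.9, 247 and 230.3 and 164, 177, 159 and 154 CPM at day 7, without overlap on either day. Its log2 fold changes were -0.69 at day 1, -0.61 at day 2 and -0.63 at day 7 (-0.54 without the replicate), and it had risen by 3.69 by day 2 in vehicle cells. Lyrm7, which stabilizes the Rieske protein before its insertion, fell by 0.78 at day 1 and 0.84 at day 2, and Bcs1l, which inserts it, had -0.38 at day 1, called, and -0.29 at day 2, not called. Ndufa4 (-0.33), a subunit of complex IV despite its name, Taco1 (-0.44), which activates COX1 translation, Ttc19 (-0.33) and Fastk (-0.33) were also called lower at day 2. Sco2, a copper metallochaperone, was the one called higher, at 1.21, 0.614 and 0.563 CPM with vehicle and 1.28, 1.18, 1.92 and 1.02 CPM with C70. Its groups overlapped, its level was near 1 CPM, and its log2 fold change of 0.74 (SE 0.265, edgeR adjusted P = 0.0210) was 1.17 without the vehicle replicate 1 and no longer called without the vehicle replicate 2 (0.56) or 3 (0.56) or the C70 replicate 3 (0.53). The calls on Ndufa4, Ttc19 and Fastk, close to the threshold, were each lost when either of 2 samples was left out, with values from -0.32 to -0.30. Bcs1l was called at day 2 without the C70 replicate 2 (-0.34). Coa6, at -0.29 with all samples, was called without the C70 replicate 1 (-0.38).

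Of 11 listed regulators of respiratory genes, 9 are in the table and most had small changes with C70. In vehicle cells, 4 of the 9 were called higher at day 7 than at day 0 and 4 lower (36.7% of all genes in each direction). Ppargc1b, a coactivator of these genes, was called lower at days 1, 2 and 7, with log2 fold changes of -0.72, -0.52 and -0.49 (-0.63 without the vehicle replicate 1), and its related coactivator Ppargc1a was called higher on the same days, with 0.62, 1.03 and 0.73 (0.65). At day 2 Ppargc1b was at 49.6, 50.6 and 46.1 CPM with vehicle and 33.5, 35.6, 34.1 and 33.2 CPM with C70, and Ppargc1a at 35.6, 36.1 and 33.6 and 79.7, 76.7, 64.4 and 66.2 CPM. No C70 sample overlapped a vehicle sample for either gene, and the directions were opposite. Pprc1, the third coactivator of the family, was called higher at day 2 only (0.37). The transcription factors whose motifs were searched changed little with C70: at day 2 Nrf1 had -0.13, Gabpa 0.07, Esrra -0.13 and Yy1 0.07 on the log2 scale, and none was called. Their log2 changes in vehicle cells from day 0 to day 7, without the vehicle replicate 1, were -0.59, -0.16, 1.69 and 0.38. Tfam, which maintains and transcribes mitochondrial DNA, had -0.32, with an adjusted P value under 0.05 and just under the fold change threshold, and it was called when the vehicle replicate 1 or 2 or the C70 replicate 1 or 3 was left out (-0.33, -0.36, -0.34 and -0.33).

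The neighbouring complexes gave values of the same size. Of 45 complex I genes (symbols beginning with Nduf, which include Ndufa4), 21 were called lower at day 2 (13.6% of all genes were) and the median of their log2 fold changes was -0.31, and of 17 ATP synthase genes (symbols beginning with Atp5), 9 were and the median was -0.34. The corresponding values for the 40 members were 19 and -0.32. In vehicle cells 44 complex I genes and 15 ATP synthase genes were called higher at day 2 than at day 0 (33.4% of all genes). The C70 effect was called lower at day 2 than at day 0 in 20 and 8 of them (11.7%). At day 7, with all samples, 45 and 16 had log2 fold changes below 0 (49.4%), and 19 and 6 were called lower (4.85%). No difference between these lists was tested, so none of these shifts is described as particular to complexes II, III and IV.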

How the data were processed

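RNA-seq counts of 29 samples of 3T3-L1 cells were used. Reads were mapped by the authors to Ensembl GRCm38 (STAR 2.7.2a), and the deposited values are whole-number counts per gene, without scaling between samples, although the table is named as normalized. The counter, its strand setting and the filter on low genes are not given in the sources used here. The submitters' processing notes name edgeR 3.26.8. Symbols were found for 11953 of 11959 genes, and exon lengths, spans and overlaps were taken from GENCODE M21 (GRCm38).

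One model of the 29 samples was fitted with edgeR 4.0.16 under R 4.3.3 (quasi-likelihood test, trimmed mean of M values, group means, no covariate). The Benjamini-Hochberg adjustment ran over all genes, separately for each comparison. The common biological coefficient of variation came to 0.0594. All 39 replicate pairs differed beyond sampling noise (chi-square over its degrees of freedom at least 2.66), so no sample was counted as a repeat. CPM and RPKM were computed from the counts. The members, lists and named genes were chosen with earlier results of these data known. Values in every sample are given for the complex II subunits, the 2 largest called falls and the smallest change in complexes III and IV at days 2 and 7, members called higher, the assembly factors at the extremes, and the extremes of the vehicle course.

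Alternatives were median-of-ratios factors, DESeq2 1.42.0, quantile normalization with limma 3.58.1, removal of the lowest 25% of genes, other thresholds, a prior count of 2, fits of the compared groups alone with and without a replicate block, and leaving out each sample. The fit was tested on simulated data. Tables and plots were made with Python 3.11.15, pandas 2.3.3 and matplotlib 3.10.9.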

Additional observations from a re-analysis of the deposited data

Results flagged for a closer look

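In groups of 4 samples, the level of each named gene and the mean log2 levels of the subunits of each complex and of the assembly factors were searched for a sample far from the other three, by Dixon's 95% value. Of 120 such groups 17 had one, where chance gives about 6. The day 7 vehicle replicate 1 accounted for 10 of the 17, as the highest of its group each time. Its levels were 204 CPM for Sdhb, 297 CPM for Uqcrfs1, 280.3 CPM for Uqcrh, 413 CPM for Uqcrq, 277 CPM for Cox7b, 104 CPM for Cox7c and 111 CPM for Uqcc1, and its mean log2 levels relative to day 0 vehicle were 1.92 for complex II subunits, 2.46 for complex III subunits and 1.16 for assembly factors. The other 7 were spread over 7 samples of the C70 groups. They were Uqcc1 at 24.9 CPM in the day 0 replicate 3, the complex II subunits at -0.0618 relative to day 0 vehicle in the day 0 replicate 2, the assembly factors at 0.23 in the day 1 replicate 2, Cox15 at 96.7 CPM in the day 2 replicate 2, Uqcc2 at 56.6 CPM in the day 2 replicate 3, Uqcrfs1 at 114.5 CPM in the day 2 replicate 4 and Uqcrh at 190.5 CPM in the day 7 replicate 2.

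The C70 effect differed between days by a tested interaction for 16 of the 20 named genes. These genes were chosen partly for large changes, so their number is not read against the share of all genes, which was 11.7% lower from day 0 to day 2, and 9.04% lower and 11.9% higher from day 2 to day 7. From day 0 to day 2 it changed on the log2 scale by -0.42 for Sdha, -0.37 for Sdhc and -0.35 for Sdhd in complex II. In complex III the changes were -0.51 for Cyc1, -0.51 for Uqcrc1, -0.58 for Uqcrc2, -0.37 for Uqcrfs1 and -0.73 for Uqcrq. In complex IV they were -0.44 for Cox6a1, -0.46 for Cox7a2, -0.38 for Cox7b and -0.38 for Cox7c, and among the assembly factors -0.40 for Cox15. From day 2 to day 7 the changes were 0.39 for Uqcc1, 0.40 for Cox15, -0.55 for Uqcc2 and -0.72 for Cox20. Cox15 is in both lists. The changes from day 2 to day 7 include the vehicle replicate that stood apart. Without it they were 0.43 for Uqcc1, 0.39 for Cox15, -0.38 for Uqcc2 and -0.56 for Cox20, and all 4 were still called.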

How the results depend on the processing

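The counts of called members in 10 comparisons were recomputed under 8 other settings, and 64 of the 80 values stayed within 1.5 times of the first. No setting other than leaving out a sample turned the sign of a named gene. The fold change threshold moved the counts most. With the adjusted P value alone, members lower with C70 numbered 14 at day 1, 28 at day 7 and 1 at day 0, and the effect changed from day 2 to day 7 in 9. With a fold change over 1.5 they numbered 0 at day 1, 1 at day 2 (4.67% of all genes) and 1 at day 7. The change of the effect was then lower from day 0 to day 2 in 2 and different from day 2 to day 7 in 1. In vehicle cells 13 were then higher at day 1 than at day 0 and 9 at day 7 than at day 2. Apart from day 2, shares of all genes at this threshold are not given here. These counts therefore show only how the calls depend on the threshold. Quantile normalization with limma gave 1 member lower at day 0 and 7 at day 1, and removal of the lowest 25% of genes and a fit of the compared groups alone gave 1 at day 0. With median-of-ratios factors, DESeq2 and quantile normalization, 21, 21 and 21 members were lower at day 2 (19 in the first fit) and 13, 13 and 10 at day 7 (14). The call on Cox17 at day 2 was lost with these 3 and with a prior count of 2. The cause was not tested.

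Leaving out each sample gave from 0 to 1 members lower with C70 for day 0, from 3 to 7 for day 1, from 17 to 22 for day 2 and from 1 to 19 for day 7, and from 4 to 9 with a changed effect from day 2 to day 7. The extremes were the fit without the day 1 vehicle replicate 1 (7 at day 1) and the fit without the day 7 vehicle replicate 1 (1 at day 7, and 9). The day 0 count of 1 arose without the day 0 vehicle replicate 1 or 2, the day 0 C70 replicate 4 or the day 1 C70 replicate 1. The sign turned for Sdhc at day 0, with values from -0.0732 to 0.0050 (above 0 without the day 0 C70 replicate 2 or the day 0 vehicle replicate 1, 0.0010), and for Cox5a at day 2, with values from -0.14 to 0.0592 (without the day 2 vehicle replicate 3).

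Equal replicate numbers did not pair the samples: 2 of 13 correlations between same-numbered samples were over 0.1, with a range of -0.25 to 0.25. With the replicate block, the members lower with C70 were 1 (day 0), 4 (day 1), 20 (day 2) and 12 (day 7).

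Depth and the number of samples limit what can be seen. Cox16 and Cox17 were the lowest members per length, and changes under the fold change threshold were not called at any depth.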
